A study of Homo sapiens with 10 samples.

Results

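Eph receptors and ephrins were measured in 10 nanopore RNA libraries from 7 human ovarian cancer cell lines. The 10 genes described here are the receptors EPHA2, EPHA3, EPHA4, EPHB2, EPHB3 and EPHB4 and the ephrins EFNA1, EFNA5, EFNB1 and EFNB2. They were chosen by gene name in the deposited transcript annotation, where they account for 10 of 57110 gene identifiers and 23 of 99493 transcripts. None of the 23 transcripts lies in an identifier that joins several genes. COV362, COV504, SK-OV-3, OVKATE, OVMANA and OVTOKO have 1 library each, run on the PromethION instrument. IGROV-1 has 2 libraries from the PromethION and 2 from the smaller MinION. The labels give no treatment, genotype, passage or culture condition for any line, and they do not say whether the numbered IGROV-1 libraries came from separate cultures. P-values therefore measure only the spread between those libraries, which may be technical. The series was made to benchmark a package for long-read transcript quantification.

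Eph receptors are the largest family of receptor tyrosine kinases, and their ligands, the ephrins, are themselves held in the membrane, so that signalling needs contact between cells. A-type ephrins are attached by a lipid anchor and bind mainly EphA receptors, while B-type ephrins span the membrane and bind mainly EphB receptors, with EPHA4 able to bind both types. Signals run forward into the receptor cell and in reverse into the ephrin cell, and they set cell repulsion, adhesion, tissue boundaries and vessel formation. EPHA2 is a much studied receptor in epithelial tumours, ovarian ones included.

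Library totals lay between 1729782 and 3666224 estimated counts, with a median of 2287873. Levels are given as CPM, the count scaled to a common library total, which is what the deposited TPM values hold, so they are not divided by transcript length and the levels of different genes are not compared. A count of 0 allows up to 3 counts, which is 1.18 to 1.73 CPM in a lone library and 0.643 CPM over the pair of IGROV-1 PromethION libraries. PAX8, a Müllerian marker, was found in every library at 84.1 to 340 CPM, and 3 to 5 of 5 epithelial markers were detected in each (summed level 404 to 8791 CPM). The epithelial marker EPCAM was at most 1.55 CPM in the IGROV-1 libraries and CDH1 was at 0 in all of them. Of the leukocyte markers CD3E was at 0 in every library and PTPRC was at most 0.445 CPM, while CD68 is counted under an identifier that it shares with EIF4A1, a translation factor, and other genes and has no level of its own. Endothelial markers summed to 0.534 to 27.6 CPM and mesenchymal markers to 0.578 to 434 CPM. Mitochondrial ribosomal RNA took 9.13% and 10.9% of counts in the IGROV-1 PromethION libraries, 1.58% to 3.31% in the other lines and 1.01% to 1.15% in the MinION libraries, and its part in the results was not tested.

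Each of the 6 lines was compared with IGROV-1 on the PromethION to ask how the receptors and ephrins differ between lines. EPHA2 was higher than in IGROV-1 in all 6 lines and EPHA3 was lower in all 6. EFNA1 was higher in 5 lines, EPHB2 and EFNB2 were higher in the same 4 lines (OVKATE, SK-OV-3, COV362 and COV504), and EFNB1 was higher in COV362 and COV504. Calls were made with edgeR's quasi-likelihood test at a Benjamini-Hochberg adjusted p under 0.05 over 13030 genes. All 6 comparisons share the same pair of IGROV-1 libraries, and each lone library was assumed to vary like the IGROV-1 replicates, so a level that is unusual in IGROV-1 enters every comparison. In bulk RNA, fewer cells expressing a gene and less RNA per cell cannot be told apart.

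In OVMANA 5 of the 10 genes were called, 3 higher and 2 lower, where 35.4% of all genes tested were called (18.9% higher and 16.5% lower). In OVKATE 8 were called, 6 higher and 2 lower, against 49.2% of all genes (26.8% higher and 22.4% lower). In OVTOKO 4 were called, 3 higher and 1 lower, against 34.1% (18.2% higher and 15.9% lower). These counts describe the 10 genes beside a background in which differences between lines were common. In SK-OV-3 there were 7 calls, 4 higher and 3 lower, against 41.8% (22% higher and 19.8% lower). In COV362 there were also 7, 5 higher and 2 lower, against 42.5% (23.7% higher and 18.8% lower). In COV504 there were 8, 6 higher and 2 lower, against 43.5% (24% higher and 19.6% lower). All 10 genes passed the filter on low counts, but the filter keeps a gene that is high in a single line, so these counts support nothing further.

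The median log2 fold change of the 10 genes was 0.04 in OVMANA, 1.87 in OVKATE, 0.21 in OVTOKO, 0.98 in SK-OV-3, 1.58 in COV362 and 1.41 in COV504, where the median of all genes lay between -0.01 and 0.04. Some of these genes had no count in a group, and their fitted fold change has no bound. With such genes set at the fold given by the 3-count floor, and those with 3 counts or fewer on both sides left out, the medians were 0.08, 1.87, 0.21, 1.00, 1.58 and 1.87 in the same order, over 9, 10, 8, 9, 10 and 9 genes. Without a correction for composition the median of all genes moved to 0.315 in OVKATE and 0.196 in SK-OV-3. The split of calls over all genes then went from 3492 higher and 2913 lower to 4392 and 2051 in OVKATE, and from 2870 and 2576 to 3538 and 1949 in SK-OV-3.

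**Figure D1:**
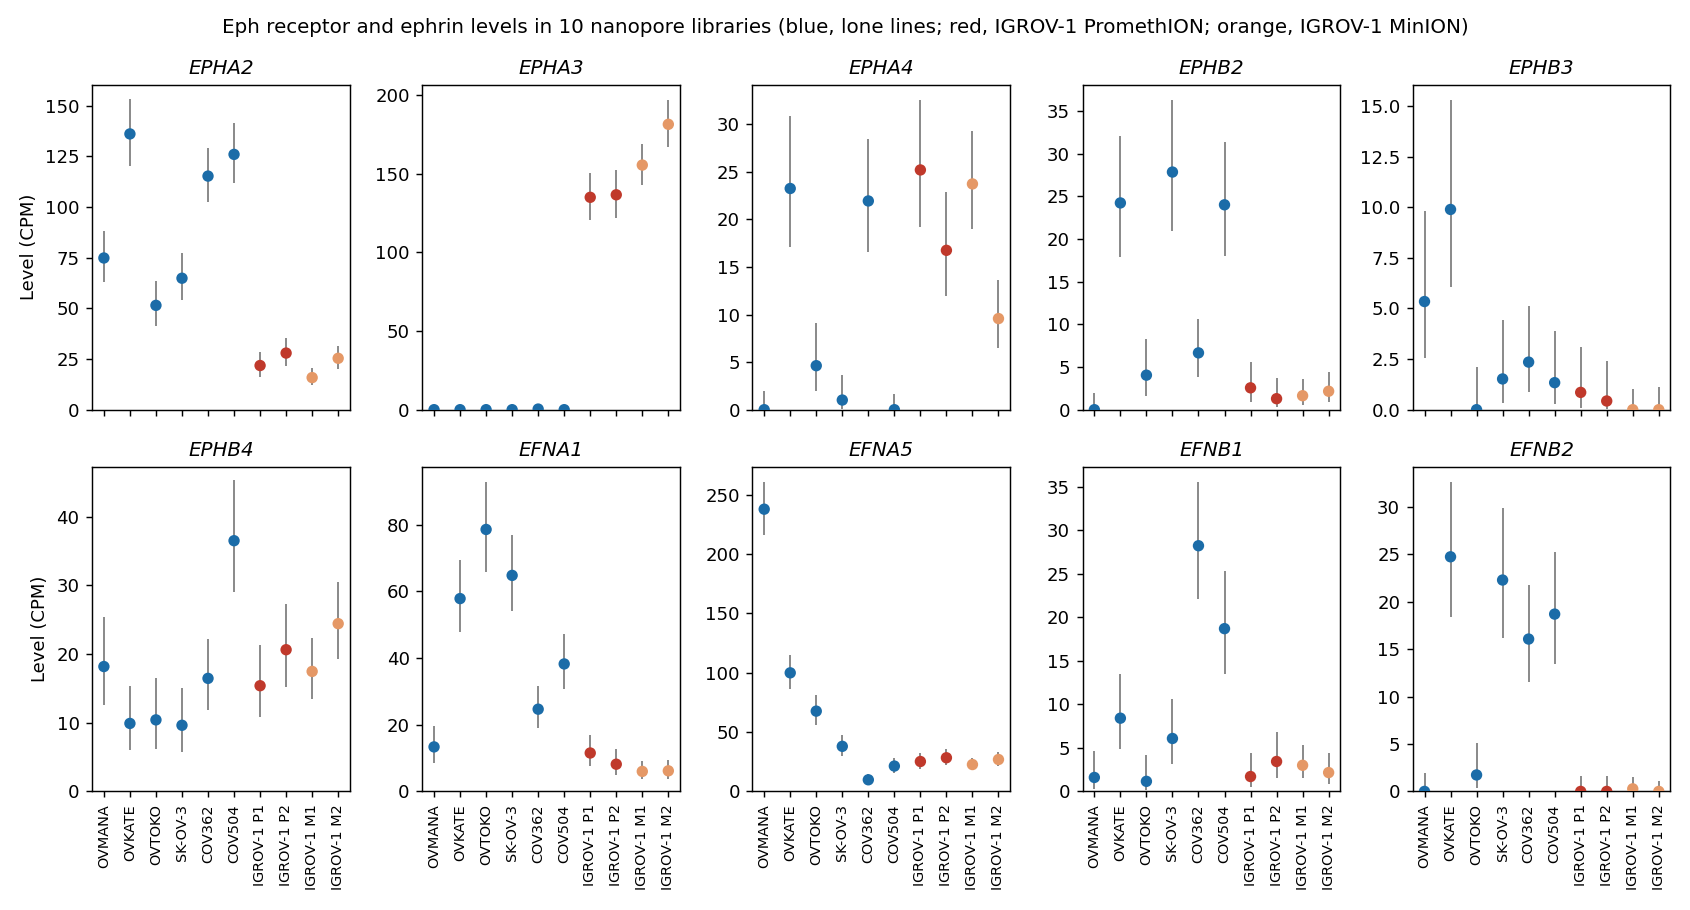
Level in CPM (vertical axis, linear, from 0) of the 10 genes in each of the 10 libraries (horizontal axis); points are single libraries and bars are exact 95% Poisson intervals, which cover counting error only. EPHA3 stands at 135 CPM or more in the 4 IGROV-1 libraries and at 0.392 CPM or less in the other lines, while EFNA5 has 238 CPM in OVMANA and 9.79 CPM in COV362.

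EPHA2 (ENSG00000142627), a receptor for A-type ephrins that is common in epithelial cells, was detected in every library through its single listed transcript (chromosome 1, 16124337 to 16156087, GRCh38). Its level was 74.8 CPM in OVMANA, 136 in OVKATE, 51.5 in OVTOKO, 64.8 in SK-OV-3, 115 in COV362 and 126 in COV504. In IGROV-1 it was 21.8 and 27.9 CPM on the PromethION and 15.8 and 25.3 CPM on the MinION. All 6 other lines were above all 4 IGROV-1 libraries. The log2 fold change against IGROV-1 was 2.26 in COV504 (SE 0.24), 2.25 in COV362 (SE 0.24), 2.15 in OVKATE (SE 0.24) and 1.65 in OVMANA (SE 0.26), with edgeR Benjamini-Hochberg adjusted p from 0.000183 to 0.00174. It was smaller in SK-OV-3 (1.15, SE 0.27, edgeR Benjamini-Hochberg adjusted p = 0.00873) and in OVTOKO (1.13, SE 0.28, edgeR Benjamini-Hochberg adjusted p = 0.0153). DESeq2 did not call these last 2, with Benjamini-Hochberg adjusted p = 0.137 and 0.182. In the order of lines, 2 of 6 neighbouring pairs were separated by their counting intervals, COV362 from OVMANA and OVTOKO from IGROV-1, and the others were not.

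EPHA3 (ENSG00000044524), an EphA receptor known from embryonic development and from several kinds of tumour, was found almost only in IGROV-1. There it had 135 and 137 CPM on the PromethION (316 and 318 counts) and 155.5 and 181 CPM on the MinION. OVMANA, OVKATE, OVTOKO, SK-OV-3 and COV504 had no count, and COV362 had 1 count (0.392 CPM). The IGROV-1 libraries thus did not overlap those of any other line. Against the floor of 3 counts in the lone library, EPHA3 was at least 84.7-fold lower in OVMANA, 91.5-fold in OVKATE, 78.3-fold in OVTOKO, 89.4-fold in SK-OV-3 and 102-fold in COV504. In COV362 the ratio was 347 with an exact 95% counting interval of 62 to 13710. The edgeR Benjamini-Hochberg adjusted p lay between 2.86e-06 and 5.61e-06 over the 6 lines. DESeq2 and every other setting tried also called EPHA3 in all 6, with the highest adjusted p at 0.0105. Of the 3 listed EPHA3 transcripts, EPHA3-201 (chromosome 3, 89107524 to 89482134), whose 17 exons encode the full receptor, took 98.0% to 99.6% of the IGROV-1 counts. The shorter EPHA3-202, which has 7 exons, took 0.4% to 2.0%.

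EPHA4 (ENSG00000116106), the receptor that binds ephrins of both types, was found mainly in OVKATE, COV362 and IGROV-1. It had 23.2 CPM in OVKATE, 21.9 in COV362, 4.62 in OVTOKO (8 counts), 1.01 in SK-OV-3 (2 counts) and no count in OVMANA or COV504. IGROV-1 had 25.2 and 16.8 CPM on the PromethION and 23.7 and 9.58 CPM on the MinION. OVKATE and COV362 fell within the range of the IGROV-1 libraries and the other 4 lines lay below it. EPHA4 was at least 13.1-fold lower in OVMANA and at least 15.7-fold lower in COV504 (edgeR Benjamini-Hochberg adjusted p = 0.00888 and 0.00445). In SK-OV-3 the ratio was 20.7 with a counting interval of 5.59 to 174 (edgeR Benjamini-Hochberg adjusted p = 0.00847). The difference in OVTOKO had a log2 fold change of -2.09 (SE 0.79, edgeR Benjamini-Hochberg adjusted p = 0.0731). It was called in 5 of the alternatives, among them the fits without either PromethION replicate of IGROV-1 (0.00972 and 0.000122).

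RefSeq lists 2 start sites for EPHA4 on the minus strand of chromosome 2. Both are shown here because the listed transcripts start at or near them. EPHA4-201 starts at 221572290 and took 97.9% to 100% of the counts in the 6 libraries with at least 10 counts of the gene. EPHA4-203, which starts 5′ of it at 221574202, took at most 0.1% and never reached 1 count. The 2 transcripts also have different 3′ ends, at 221418029 in EPHA4-201 and at 221425901 in EPHA4-203, and the deposited values hold no read positions. Which start site the reads came from is therefore not known from these shares. Each window runs from 250 bases before to 50 bases after the RefSeq start (GRCh38.p14), and capitals mark CpG dinucleotides.
EPHA4 upstream window, chr2:221574153-221574452, minus strand: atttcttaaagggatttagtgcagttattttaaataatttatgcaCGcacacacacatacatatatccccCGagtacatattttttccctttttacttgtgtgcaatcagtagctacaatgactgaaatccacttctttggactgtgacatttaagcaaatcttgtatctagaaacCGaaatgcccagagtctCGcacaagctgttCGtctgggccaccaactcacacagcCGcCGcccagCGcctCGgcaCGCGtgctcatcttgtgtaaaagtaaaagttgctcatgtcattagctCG
EPHA4 downstream window, chr2:221572255-221572554, minus strand: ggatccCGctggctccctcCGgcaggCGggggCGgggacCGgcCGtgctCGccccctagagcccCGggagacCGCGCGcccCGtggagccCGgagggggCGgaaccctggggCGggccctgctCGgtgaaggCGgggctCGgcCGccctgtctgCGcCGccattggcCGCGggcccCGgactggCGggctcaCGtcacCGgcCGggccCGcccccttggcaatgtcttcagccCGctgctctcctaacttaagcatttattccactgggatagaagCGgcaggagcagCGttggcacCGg
The downstream window holds 33 CpG and has a GC content of 74.3%, with more CpG than 82.8% of 35116 RefSeq windows of the same length. The upstream window holds 12 CpG and has a GC content of 43.0%, with more CpG than 46.9% of them.

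EPHB2 (ENSG00000133216), a B-type receptor known for placing cells along the intestinal crypt, was high in 3 lines. It had 27.9 CPM in SK-OV-3, 24.2 in OVKATE and 24.02 in COV504, then 6.66 in COV362, 4.05 in OVTOKO and no count in OVMANA. The 4 IGROV-1 libraries had 1.29 to 2.56 CPM, so SK-OV-3, OVKATE, COV504, COV362 and OVTOKO had values above all of them. The interval of OVTOKO overlapped that of IGROV-1, and the 0 of OVMANA allows up to 1.60 CPM, which lies within the IGROV-1 range. The first 3 lines were not separated from one another by counting intervals but were separated from COV362. Against IGROV-1 the log2 fold change was 3.59 in SK-OV-3 (SE 0.42), 3.53 in COV504 (SE 0.42) and 3.32 in OVKATE (SE 0.43), with edgeR Benjamini-Hochberg adjusted p from 0.000317 to 0.000417. In COV362 it was 1.81 (SE 0.54, edgeR Benjamini-Hochberg adjusted p = 0.0272). The COV362 call was lost without PromethION replicate 2 of IGROV-1 (0.109), without MinION replicate 1 (0.0703) and without MinION replicate 2 (0.0598), by the same test. DESeq2 also missed COV362 (Benjamini-Hochberg adjusted p = 0.485) and OVKATE (0.0599). Of 5 listed transcripts, EPHB2-204 (chromosome 1, 22710965 to 22921500) took 87.5% to 95.9% of the counts in the 4 libraries with at least 10 counts.

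EPHB3 (ENSG00000182580), a close relative of EPHB2 that acts with it in the intestine, was low throughout. It had 9.89 CPM in OVKATE (20 counts), 5.34 in OVMANA (10 counts), 2.35 in COV362, 1.52 in SK-OV-3, 1.33 in COV504 and none in OVTOKO. IGROV-1 had 0.854 and 0.43 CPM on the PromethION and no count on the MinION. No neighbours in this order were separated by their counting intervals. The ratio to IGROV-1, which had 3 counts in both libraries together, was 15.4 in OVKATE (counting interval 4.57 to 80.9, edgeR Benjamini-Hochberg adjusted p = 0.00628). In OVMANA the ratio was 8.32 (2.14 to 47, edgeR Benjamini-Hochberg adjusted p = 0.0304), and without a filter on low counts this call was lost (0.0542). The OVKATE call was not made by DESeq2.

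EPHB4 (ENSG00000196411), the partner of EFNB2 in separating arteries from veins, had the smallest ratio of highest to lowest line among the 5 genes found in every library. Its level was 36.5 CPM in COV504, 18.2 in OVMANA, 16.5 in COV362, 10.4 in OVTOKO, 9.89 in OVKATE and 9.62 in SK-OV-3. IGROV-1 had 15.4 and 20.6 CPM on the PromethION and 17.5 and 24.4 CPM on the MinION. That ratio was 3.79, and only COV504 was separated from its neighbour. EPHB4 rose by 0.94 on the log2 scale in COV504 (SE 0.28, edgeR Benjamini-Hochberg adjusted p = 0.0268). It fell by 1.16 in OVKATE (SE 0.37, edgeR Benjamini-Hochberg adjusted p = 0.0306) and by 1.13 in SK-OV-3 (SE 0.38, edgeR Benjamini-Hochberg adjusted p = 0.0418). Each of these 3 calls was lost without single IGROV-1 libraries. COV504 lost its call without PromethION replicate 1 (0.0849) or either MinION replicate (0.065 and 0.0503). Without PromethION replicate 2, MinION replicate 1 or MinION replicate 2, the edgeR Benjamini-Hochberg adjusted p was 0.0896, 0.0687 and 0.0621 in OVKATE and 0.118, 0.0851 and 0.0863 in SK-OV-3. DESeq2 called none of the 3 (adjusted p 0.53 to 0.589).

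EFNA1 (ENSG00000169242), an A-type ephrin and a main ligand of EPHA2, was lowest in IGROV-1. Its level was 78.6 CPM in OVTOKO, 64.8 in SK-OV-3, 57.9 in OVKATE, 38.3 in COV504, 24.7 in COV362 and 13.4 in OVMANA. IGROV-1 had 11.5 and 8.16 CPM on the PromethION and 6.001 and 6.18 CPM on the MinION. All 6 other lines lay above every IGROV-1 library, but the interval of OVMANA overlapped that of IGROV-1. The log2 fold change was 3.07 in OVTOKO (SE 0.24), 2.48 in SK-OV-3 (SE 0.25), 2.25 in OVKATE (SE 0.25), 1.87 in COV504 (SE 0.26) and 1.36 in COV362 (SE 0.28). The edgeR Benjamini-Hochberg adjusted p of these 5 lay between 5.26e-05 and 0.00509. In OVMANA the log2 fold change was 0.50 (SE 0.34, edgeR Benjamini-Hochberg adjusted p = 0.291). DESeq2 did not call COV362 (Benjamini-Hochberg adjusted p = 0.242) or COV504 (0.0553).

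The 2 listed EFNA1 transcripts differ in the length of exon 1, which is 610 bases in EFNA1-202 and 194 bases in EFNA1-201 with the same coding part, and in a coding exon of 66 bases, exon 3 of EFNA1-202 (chromosome 1, 155133503 to 155133568), which EFNA1-201 lacks. The junctions below are printed because they hold the difference in coding sequence. They are on the plus strand of GRCh38 in GENCODE 29, each with 20 bases of the flanking exons, and capitals mark the exon that is left out.
EFNA1-202: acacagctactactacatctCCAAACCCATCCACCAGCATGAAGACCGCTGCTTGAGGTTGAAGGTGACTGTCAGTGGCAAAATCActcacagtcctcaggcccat
EFNA1-201: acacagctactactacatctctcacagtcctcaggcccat
The form without the exon took 0.7% of EFNA1 counts in OVTOKO (95% Wilson interval 0.1% to 4.0%), 4.6% in OVKATE, 5.6% in COV362, 8.6% in SK-OV-3, 11.6% in COV504 and 20.9% in OVMANA (8.9% to 39.1%). In IGROV-1 it took 7.4% and 24.4% on the PromethION and 14.2% and 0.4% on the MinION, so replicates of the same line spanned the range of all lines. A change in the share of EFNA1 transcripts was not called in any line. The smallest p was in OVTOKO, at 0.0305 before adjustment and 0.352 after Benjamini-Hochberg adjustment of edgeR's Simes p over 4730 genes.

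EFNA5 (ENSG00000184349), an A-type ephrin known for guiding axons, differed 24.3-fold between the highest and the lowest line and fell into a graded order. Its level was 238 CPM in OVMANA, 99.9 in OVKATE, 67.6 in OVTOKO, 38.0 in SK-OV-3, 21.4 in COV504 and 9.79 in COV362. The 4 IGROV-1 libraries had 22.6 to 28.3 CPM, below the first 4 of these lines and above the last 2. In the order of lines, 4 of 6 neighbouring pairs were separated by their counting intervals, with IGROV-1 not separated from SK-OV-3 or COV504. These intervals are on CPM without composition scaling. On TMM-scaled library sizes the levels of OVKATE and OVTOKO were closer, at 84.05 and 74.01 CPM. Whether these 2 lines stay separated on that scale was not tested. Against IGROV-1 the log2 fold change was 3.21 in OVMANA (SE 0.18), 1.60 in OVKATE (SE 0.19) and 1.41 in OVTOKO (SE 0.20), with edgeR Benjamini-Hochberg adjusted p = 6.65e-06, 0.000251 and 0.00114. In COV362 it was -1.40 (SE 0.27, edgeR Benjamini-Hochberg adjusted p = 0.00379). In SK-OV-3 and COV504 the values were 0.28 and -0.40 (edgeR Benjamini-Hochberg adjusted p = 0.343 and 0.2). DESeq2 missed OVTOKO (Benjamini-Hochberg adjusted p = 0.0572) and COV362 (0.126).

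Most EFNA5 counts were given to a transcript model without the gene's first exon. EFNA5-201 (chromosome 5, 107376889 to 107670895, minus strand) has 5 exons, and EFNA5-206 (107376889 to 107427514) has 4 and starts 5 bases before the position where exon 2 of EFNA5-201 begins, as printed here. The last 20 bases of exon 1 are shown for EFNA5-201. The 3 bases just before exon 2 are the same in both transcripts, and capitals mark the bases before these.
EFNA5-201: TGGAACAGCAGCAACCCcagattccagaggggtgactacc
EFNA5-206: AAcagattccagaggggtgactacc
EFNA5-206 took 84.9% to 94.5% of EFNA5 counts (median 91.0%) and EFNA5-201 took 5.5% to 15.1%. EFNA5-201 had a share of 11.5% in OVMANA, 12.3% in OVKATE, 11.1% in OVTOKO, 12.2% in SK-OV-3, 6.0% in COV362 and 15.1% in COV504. In IGROV-1 it was 6.0% ± 0.7 on the PromethION and 6.2% ± 0.9 on the MinION (SD, n = 2 each). GENCODE 29 gives EFNA5-206 a coding sequence that starts at its first base. The deposited values hold no read positions, so how many reads reach exon 1 is not known from them. No line was called for EFNA5 transcript shares.

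EFNB1 (ENSG00000090776), a B-type ephrin encoded on the X chromosome, was highest in the COV lines. It had 28.2 CPM in COV362 (72 counts), 18.7 in COV504 (42 counts), 8.41 in OVKATE, 6.08 in SK-OV-3, 1.60 in OVMANA and 1.16 in OVTOKO. The 4 IGROV-1 libraries had 1.71 to 3.44 CPM. COV362 and COV504 were not separated from each other, but COV504 was separated from OVKATE. The log2 fold change was 3.47 in COV362 (SE 0.41, edgeR Benjamini-Hochberg adjusted p = 0.000365) and 2.76 in COV504 (SE 0.45, edgeR Benjamini-Hochberg adjusted p = 0.0017). In OVKATE the value was 1.39 (SE 0.55, edgeR Benjamini-Hochberg adjusted p = 0.0651). DESeq2 called neither COV362 (Benjamini-Hochberg adjusted p = 0.0713) nor COV504 (0.181).

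EFNB2 (ENSG00000125266), the ligand of EPHB4 in arteries and also a ligand of EPHB2, was found mainly in 4 lines. It had 24.7 CPM in OVKATE (50 counts), 22.3 in SK-OV-3 (44), 18.7 in COV504 (42) and 16.1 in COV362 (41), which were not separated from one another. OVTOKO had 3 counts and OVMANA none. IGROV-1 had no count on the PromethION and 1 count over both MinION libraries. Against the floor of 3 counts over both IGROV-1 PromethION libraries, EFNB2 was at least 38.5-fold higher in OVKATE, 34.7-fold in SK-OV-3, 29.1-fold in COV504 and 25-fold in COV362. The edgeR Benjamini-Hochberg adjusted p of the 4 lay between 0.000239 and 0.000495, and every setting tried kept these calls (highest adjusted p 0.0232).

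**Figure D2:**
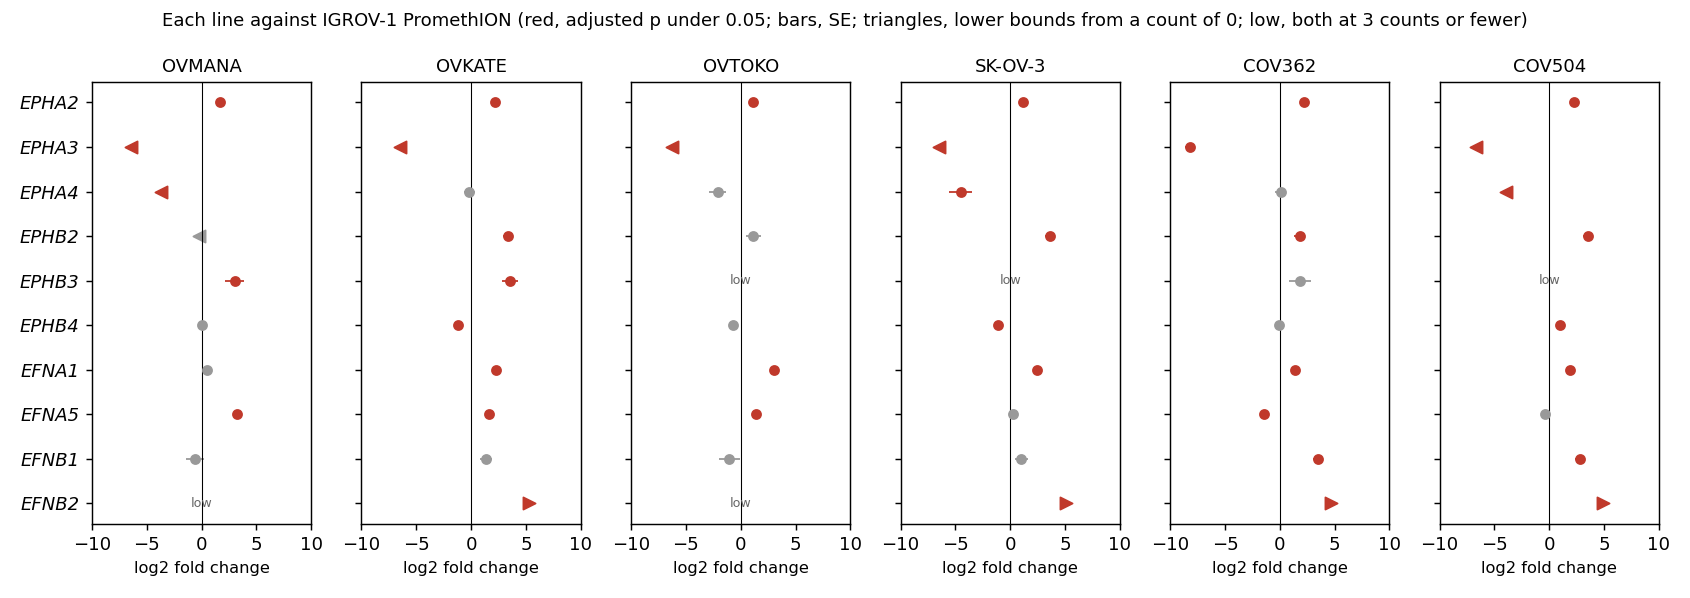
Log2 fold change of each gene against IGROV-1 PromethION (horizontal axis) in the 6 lines; points are edgeR estimates with SE bars, triangles are the bounds given by a count of 0, red marks an adjusted p under 0.05 and the word low marks 3 counts or fewer on both sides. EPHA2 is right of 0 and EPHA3 left of 0 in all 6 panels, while EPHA4, EPHB4 and EFNA5 lie on different sides of 0 in different lines.

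EPHB4 is the receptor with the most even use of 2 transcripts. EPHB4-201 (chromosome 7, 100802565 to 100827499) has 17 exons and a coding sequence of 2961 bases. EPHB4-210 lacks 3 of these exons, 614 bases in all, and has a coding sequence of 918 bases, which ends before the exons for the kinase. EPHB4-210 took 8.2% of EPHB4 counts in OVKATE (95% Wilson interval 2.8% to 30.1%), 10.4% in COV504 (5.9% to 19.6%), 16.2% in SK-OV-3, 27.8% in OVMANA, 28% in COV362 and 50.4% in OVTOKO (29% to 71%). In IGROV-1 it took 13.4% and 40.9% on the PromethION and 12.2% and 24% on the MinION. The PromethION replicates of IGROV-1 therefore covered most of the range between lines, and OVTOKO, the highest, rested on 18 counts of the gene. No line was called for EPHB4 transcript shares (lowest edgeR Simes p 0.237 before adjustment, in COV504).

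Transcript shares could be tested for EFNA1, EFNA5 and EPHB4 only, since the other 7 genes did not have 2 transcripts that passed the filter. None of the 3 was called in any of the 6 lines by edgeR's Simes p with Benjamini-Hochberg adjustment, and 1 of the 18 tests had an unadjusted p under 0.05. Over all genes, 2.75% were called in OVMANA, 4.97% in OVKATE, 1.35% in OVTOKO, 2.07% in SK-OV-3, 2.98% in COV362 and 2.56% in COV504. Those shares depended on the libraries and on the test. They stand for 130 genes in OVMANA, 235 in OVKATE, 64 in OVTOKO, 98 in SK-OV-3, 141 in COV362 and 121 in COV504. Without 1 IGROV-1 library, whichever of the 4 it was, 27 to 36, 51 to 71, 13 to 17, 18 to 27, 39 to 44 and 29 to 38 genes were called in the same order, and with the PromethION libraries alone 41, 91, 19, 23, 48 and 43. An F test per gene in place of the Simes p called 301, 508, 219, 276, 406 and 311. EFNA1, EFNA5 and EPHB4 were called in none of these settings (lowest edgeR Benjamini-Hochberg adjusted p = 0.126). Of the 23 listed transcripts, EPHA3-203, EPHA4-203, EPHB2-201 and EFNA5-204 reached 1 count in no library.

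**Figure D3:**
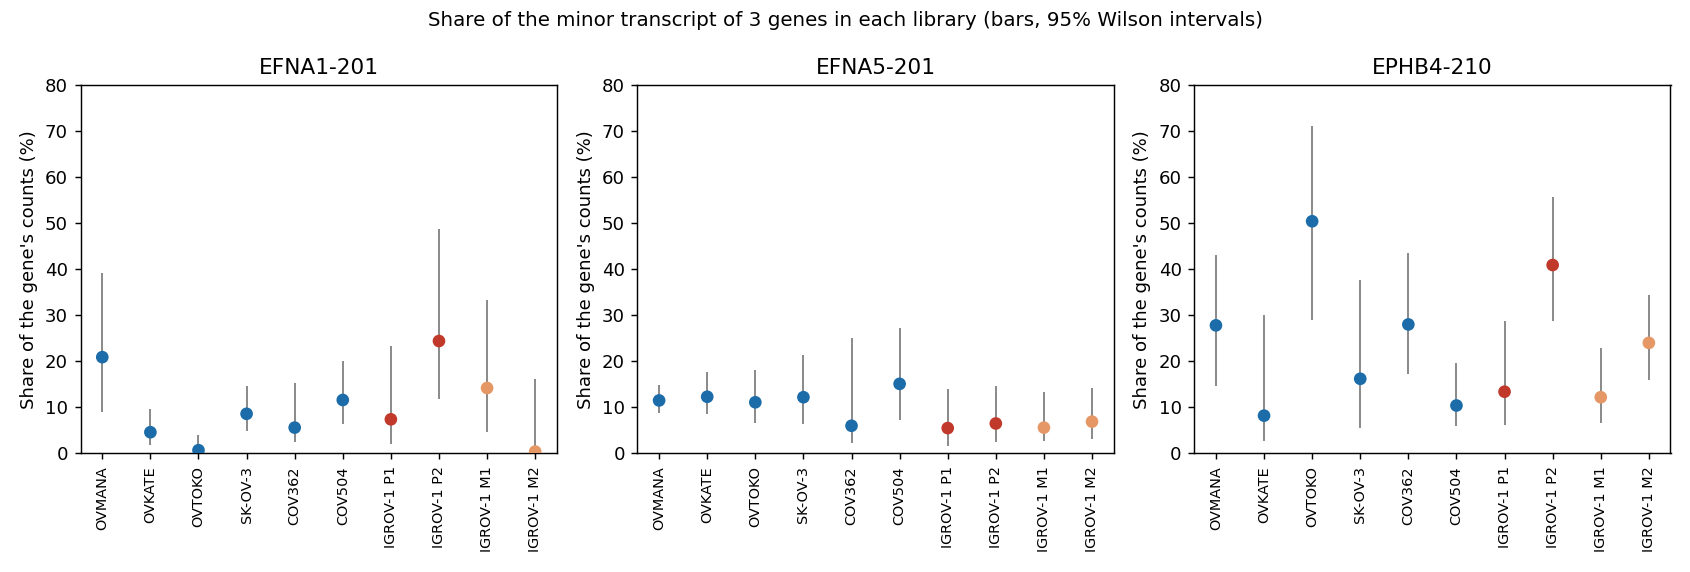
Share of the gene's counts (vertical axis, percent) taken by EFNA1-201, EFNA5-201 and EPHB4-210 in each library (horizontal axis); bars are 95% Wilson intervals. The 2 IGROV-1 PromethION libraries differ for EFNA1-201 (7.4% and 24.4%) and EPHB4-210 (13.4% and 40.9%), and EFNA5-201 stays between 5.5% and 15.1%.

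The comparison of instruments within IGROV-1 asked whether the genes were measured alike by the MinION and the PromethION. EPHA3, at 136 ± 1.14 CPM on the PromethION and 168 ± 18.3 CPM on the MinION (SD, n = 2 each), had a log2 difference of 0.27 (SE 0.12, edgeR Benjamini-Hochberg adjusted p = 0.327). EFNA1, at 9.85 ± 2.38 and 6.09 ± 0.126 CPM, had a log2 difference of -0.73 (SE 0.32, edgeR Benjamini-Hochberg adjusted p = 0.298, and 0.0476 unadjusted). For both genes the libraries of the instruments did not overlap. With 2 libraries on each side such separation is common among genes that do not differ. The share of all genes that showed it was not counted, so nothing further is read from it. EPHA2, EPHA4, EPHB4 and EFNA5 overlapped between instruments, with log2 differences of -0.33, -0.34, 0.17 and -0.16. Of the 10 genes, 6 passed the filter and 0 were called by edgeR, where 0.817% of 10041 genes were called (0.11% higher and 0.707% lower). The gene with an unadjusted p under 0.05 was EFNA1, and DESeq2 also called none. EPHB2, EPHB3, EFNB1 and EFNB2 were too low to be tested, with at most 3.44 CPM in any IGROV-1 library. For transcript shares only EPHB4 could be tested between instruments (edgeR Benjamini-Hochberg adjusted p = 1, and 0.607 unadjusted), and 5.98% of 2979 genes were called. That share stands for 178 genes, against 38 and 40 without PromethION replicate 1 or 2, 60 and 61 without MinION replicate 1 or 2, and 358 by the F test.

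Receptors and ephrins were then set side by side over the 7 lines on the PromethION, with IGROV-1 as the mean of its libraries and levels as log2(CPM + 1). Over the 24 receptor and ephrin pairs, Pearson's r ran from -0.66 to 0.92 with a median of 0.02, and 12 pairs were above 0. The highest was EPHB2 with EFNB2 (r = 0.92, Spearman's rank correlation 0.95), and r was 0.90 without the 2 lines farthest from the median of EPHB2. Both genes were lowest in OVMANA and IGROV-1, intermediate or low in OVTOKO, and highest in OVKATE, SK-OV-3 and COV504. COV362 differed between the genes. Its EFNB2 level of 16.1 CPM was not separated from COV504 by counting intervals. Its EPHB2 level of 6.66 CPM was separated from COV504 and not from OVTOKO. EPHA2 and EFNA1, which bind each other, had r = 0.40 and a rank correlation of 0.11, and r turned to -0.47 without the 2 farthest lines. EPHB4 and EFNB2 had r = -0.10 and a rank correlation of -0.56. After EPHB2 with EFNB2 came pairs of different types, EPHA2 with EFNB2 (r = 0.74), EPHB2 with EFNA1 (0.71) and EPHA2 with EFNB1 (0.69). EPHB2 with EFNB1 had r = 0.62. These values describe 7 lines, are the extremes of many pairs, and share library depth and composition, so no test is attached to them.

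**Figure D4:**
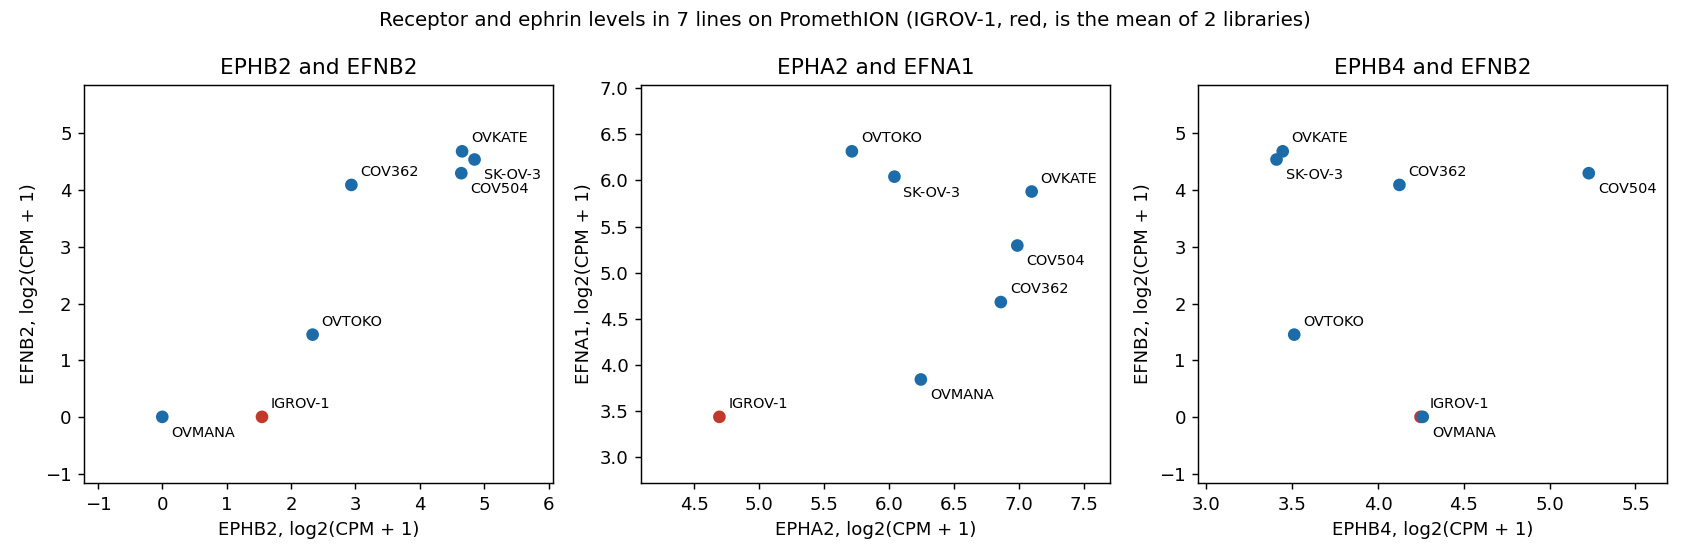
Levels of 3 receptor and ephrin pairs in 7 lines on PromethION, each axis in log2(CPM + 1); IGROV-1, in red, is the mean of 2 libraries. EPHB2 and EFNB2 lie along a rising line (r = 0.92), whereas EPHA2 with EFNA1 (r = 0.40) and EPHB4 with EFNB2 (r = -0.10) do not.

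Among 11260 genes with at least 10 CPM in a PromethION library, the gene most like EPHA2 over the 7 lines was FAM111A (Pearson's r = 0.988 of log2(CPM + 1)), followed by IFI27 (0.982). For EPHA3 they were ERMN and NPPC (0.998 each), and ERMN was at 0 in all 6 lines other than IGROV-1. For EPHA4 they were TBC1D31 (0.972) and FAM161A (0.963), for EPHB2 APOOL (0.993) and ZC2HC1A (0.992), and for EPHB4 MDN1 (0.956) and ZNF398 (0.949). For the ephrins they were CPQ (0.984) and PTPN2 (0.983) for EFNA1, ARL1 (0.979) and TMEM63A (0.973) for EFNA5, NRM (0.984) and NUF2 (0.979) for EFNB1, and SPARC (0.991) and RLIM (0.988) for EFNB2. SPARC, a secreted matrix protein, had 843 CPM in OVKATE, 2043 in SK-OV-3, 313 in COV362, 510 in COV504, 4.05 in OVTOKO and no count in OVMANA or IGROV-1. Both SPARC and EFNB2 were thus highest in OVKATE, SK-OV-3, COV362 and COV504. EPHB3 was below 10 CPM everywhere and was not matched. An r over 0.95 was reached by 20 genes with EPHB2 and by 30 with EFNB2, above the 0.92 of EPHB2 with EFNB2. With 7 lines and so many genes compared, values this high are given as a description only.

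The annotation holds 12 other genes of the family, of which 7 passed the filter in the comparison of lines. Among them 2 were called in OVMANA, 5 in OVKATE, 2 in OVTOKO, 3 in SK-OV-3, 2 in COV362 and 4 in COV504, where 35.4%, 49.2%, 34.1%, 41.8%, 42.5% and 43.5% of all genes were called. The filter keeps a gene that is high in a single line, and EPHB1, EPHA1, EPHB6 and EPHA10 had no count in any IGROV-1 library, so these counts support nothing further. EPHB1, another B-type receptor, had no count in any IGROV-1 library and 43.5 CPM in OVKATE, at least 67.7-fold higher. It was also called in COV362 (5.48 CPM), OVTOKO (5.20 CPM) and COV504 (2.67 CPM), with edgeR Benjamini-Hochberg adjusted p = 0.00641, 0.0111 and 0.0269. EPHA1, the first Eph receptor described, had no count in IGROV-1, 12.9 CPM in OVKATE, 10.2 in COV504 and 4.27 in OVMANA, and was called in these 3. EPHB6, whose kinase domain is inactive, was called in OVKATE (11.4 CPM against 0 in IGROV-1). EPHA10, which also lacks kinase activity, was called in SK-OV-3 (8.10 CPM) and OVKATE (2.97 CPM). EFNB3 was called in every line, higher in OVTOKO (23.7 CPM against 10.7 and 12.5 CPM in IGROV-1) and lower in the other 5, with no count in SK-OV-3. EFNA4 was lower in COV504 (12.5 CPM against 21.8 and 29.2 CPM). EFNA3, counted under an identifier that it shares with an overlapping gene, was higher in SK-OV-3 (13.2 CPM against 4.70 and 3.01 CPM).

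Signalling partners of the family were taken from a list of 32 genes for adaptors, exchange factors, kinases and sheddases, of which 30 passed the filter. Of these 30, 12 were called higher and 5 lower in OVKATE, 9 and 8 in COV362, 9 and 6 in SK-OV-3, 9 and 5 in COV504, 7 and 3 in OVMANA, and 4 and 6 in OVTOKO. Their median log2 fold change lay between -0.40 (COV362) and 0.16 (SK-OV-3). The list thus moved in both directions in each line, with 10 to 17 of 30 genes called beside 34.1% to 49.2% of all genes.

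The 10 partners called in at least 4 lines include the following 5, which had the largest fold changes. VAV3, a signalling protein that acts below Eph receptors, was lower in all 6 lines, at 20.3 CPM in OVMANA, 45.5 in OVKATE, 46.2 in OVTOKO, 33.9 in SK-OV-3, 62.3 in COV362 and 24.9 in COV504 against 138 and 99.2 CPM in IGROV-1 (edgeR Benjamini-Hochberg adjusted p from 0.0012 to 0.0462). NGEF, also called ephexin, the exchange factor that EPHA4 uses in growth cones, was called higher in 5 lines. It reached 117 CPM in SK-OV-3 and 78.6 CPM in OVKATE, with 21.5 in COV362, 17.6 in OVMANA and 17.4 in COV504, against 5.13 and 3.44 CPM in IGROV-1, while OVTOKO had 4.05 CPM. CHN1, or alpha-chimaerin, a GTPase-activating protein for Rac that also acts with EPHA4, had 27.6 CPM in COV504, 12.5 in COV362, 6.58 in SK-OV-3, 5.94 in OVKATE and 3.47 in OVTOKO against 1 count in the 2 IGROV-1 libraries, and was called in these 5. Its relative CHN2 was called in OVKATE (9.40 CPM), COV504 (8.45 CPM), OVMANA (5.88 CPM) and COV362 (5.48 CPM) against 2 counts in IGROV-1. TIAM1, a Rac exchange factor that binds Eph receptors and ephrins, had no count in IGROV-1 and was at least 8.67-fold higher in SK-OV-3, 8.54-fold in COV362, 8.31-fold in COV504 and 5.39-fold in OVKATE, all 4 called.

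RefSeq gives 12 windows of 300 bases at start sites of the 10 genes (GRCh38.p14), and the choice of genes did not use their sequence. Some of these windows are not at the start of the main counted transcript. The EFNA1 window is set on 155127876, while EFNA1-202 starts at 155127460. The EFNA5 window is set on 107670937, while EFNA5-206 starts at 107427514. The EFNB2 window is set on 106535662, while EFNB2-201 starts at 106535114. The GC box GGGCGG, searched on both strands as GGGCGG or CCGCCC, is in 11 of the 12, the exception being EPHA3, and in 45% of 35116 windows of the same kind. The TATA sequence TATAAA, searched on both strands as TATAAA or TTTATA, is in 1 of the 12 (EFNB2) and in 11.5% of all windows. The 12 windows hold between 12 and 49 CpG, where the median of all windows is 14. The 2 EPHB2 windows overlap except for 1 base, so they are not separate observations. A match is a description of these letters and not of a bound factor.

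Exact sequence shared between family members was searched for. Of 165 pairs of family genes that include at least 1 of the 10, 3 share a run of 31 bases in GENCODE 29. EPHA2 and EPHB2 share 31 different runs of this length, EPHB3 and EPHB4 share 6, and EPHA2 and EPHA8 share 1. Runs that overlap were counted separately, so these are not numbers of separate stretches. Whether reads with errors were assigned between similar but not identical sequences was not tested. Whether counting used the strand is not given in the sources used here, so reads of overlapping antisense genes cannot be told apart from those of the genes described.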

How the data were processed

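The authors deposited estimated counts of 99493 transcripts for every library. They also deposited TPM values, which equal the counts scaled to the library total (CPM) to within 5.6e-11. The submitters' processing notes name minimap2 2.24-r1122 and GRCh38 without a role, and the quantification tool is not given in the sources used here. Coordinates are those of the deposited annotation and were the same in GENCODE 29 for all 23 transcripts.

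Estimated counts were summed per gene identifier and rounded to whole numbers, which moved a library by at most 0.0258%. Genes were tested with edgeR 4.0.16 (R 4.3.3): quasi-likelihood test, TMM scaling, default filter by group, Benjamini-Hochberg adjustment over all genes, two-sided. The lines were fitted over all 10 libraries in 8 groups (2 residual degrees of freedom), and the instruments over the 4 IGROV-1 libraries. Fold changes are therefore on the TMM scale, while levels in CPM are not. Transcript shares were tested with diffSpliceDGE and a Simes p. Poisson and Wilson intervals cover counting error only. As a check for a library deposited more than once, the IGROV-1 replicates were compared, and their counts differed by more than sampling noise (chi-square per degree of freedom 4.05 and 6.28). DESeq2 1.42.0, other filters and scalings, and leaving out libraries were tried as alternatives.

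The 10 genes and all lists were chosen with earlier results of these data known. All 10 genes are described. Other family genes are named where called, and signalling partners are the 5 with the largest change among those called in at least 4 lines. The 2 genes most like each of the 10 were named by Pearson's r of log2(CPM + 1). Promoter windows are from RefSeq (GRCh38.p14), matched by symbol for all 10 genes.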

Additional observations from a re-analysis of the deposited data

How the results depend on the processing

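Of 66 tests of the 10 genes against IGROV-1 or between instruments, 39 were called. None of the 39 changed direction in any setting run. Of these, 35 kept their call without each IGROV-1 library in turn, and 24 of the 37 with a DESeq2 adjusted p kept it there. DESeq2 gave none for the other 2, and 25 kept their call in every setting that gave an adjusted p. DESeq2 called 1442, 2116, 1314, 1672, 1587 and 1771 genes in the 6 lines (OVMANA first, then in the order OVKATE, OVTOKO, SK-OV-3, COV362, COV504) and 5, 2, 3 and 5 of the 10 genes in OVKATE, OVTOKO, COV362 and COV504. The cause was not tested. Without 1 library, the number of genes called in OVTOKO ranged from 2890 (without MinION replicate 1) to 4398, and between instruments from 4 (without MinION replicate 2) to 209 (without PromethION replicate 1), with 8 without MinION replicate 1 and 35 without PromethION replicate 2. Between instruments it was 15 with no filter and 49 with all 10 libraries in the fit, against 82.

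Some uncalled log2 values changed sign. Without each library in turn, EPHB4 in OVMANA ranged from -0.12 to 0.30, EPHA4 in OVKATE from -0.42 to 0.17, and in COV362 EPHA4 from -0.16 to 0.42 and EPHB4 from -0.29 to 0.14. Between instruments EPHA4 ranged from -1.21 to 0.19 and EPHB4 from -0.04 to 0.39 (-0.03 without PromethION replicate 1). With the 4 IGROV-1 libraries as 1 group, EPHB4 in OVMANA was -0.02 and EPHA4 in OVKATE 0.02, and the latter was 0.15 without composition scaling.

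The labels do not say that a replicate number ties MinION to PromethION libraries. Same-numbered libraries deviated together (correlation 0.416, 2 pairs). With the replicate number as a block, 1978 genes were called between instruments and 1 of the 10 genes, EPHA3 (log2 difference 0.27, edgeR Benjamini-Hochberg adjusted p = 0.016). The other lines have 1 library each, so their own spread is not known, and genes with under 10 counts have wide intervals.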
